A study of Mus musculus with 160 samples.

Results

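The E2F transcription factors and 2 of the pocket proteins that bind them were followed in sorted populations of the mouse aorta-gonads-mesonephros region. They are 10 of the 46078 genes in the count table. They were taken by their gene names, with earlier results of these data known but no measured value in the rule, as the activators *E2f1*, *E2f2* and *E2f3*, the repressors *E2f4*, *E2f5*, *E2f6*, *E2f7* and *E2f8*, and the pocket proteins *Rbl1* and *Rbl2*. The pocket protein gene *Rb1* was not in the set. All 10 members passed the filter on low counts (10 or more counts in 5 or more pools of a comparison) in every comparison. By GENCODE M21 (GRCm38) the members that turned out to differ lie at chr2:154559407-154569892 (*E2f1*, ENSMUSG00000027490), chr12:16810963-16839742 (*E2f6*, ENSMUSG00000057469), chr8:105297663-105305370 (*E2f4*, ENSMUSG00000014859), chr3:14578641-14606309 (*E2f5*, ENSMUSG00000027552), chr7:48866429-48881596 (*E2f8*, ENSMUSG00000046179), chr2:157145893-157204534 (*Rbl1*, ENSMUSG00000027641) and chr4:136172394-136196057 (*E2f2*, ENSMUSG00000018983), and counts cover their exons. RNA was measured by Smart-seq2, which makes full-length cDNA from few cells, in 160 pools of 20 cells, with 20 pools of each of 8 populations.

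Every embryo, also those that gave the *Gata3*-GFP- cells, had the genotype *Gata3*-GFP +/-, and GFP reports where *Gata3* is expressed. At E10.5 the populations were *Gata3*-GFP+ and *Gata3*-GFP- endothelial cells (ECs, sorted by VE-cadherin and by the absence of CD41 and CD45) and *Gata3*-GFP+ and *Gata3*-GFP- hematopoietic cells (HCs, sorted by CD41 or CD45). At E11.5 they were mesenchymal cells (MCs, sorted by Pdgfrb) and cells of the sympathetic nervous system (SNS, sorted by Ngfr), each again split by *Gata3*-GFP. MCs and SNS cells were thus sampled only at E11.5, so cell type and stage cannot be told apart between the 2 stages. Cells came from pooled embryos of several biological replicates, but the columns do not tie a pool to a replicate, so the p-values measure the spread between pools, which may in part be technical. After 7 pools of low yield were left out, 153 pools with 1400824 to 16004756 counts on genes were compared. In pools of cells, fewer cells of a type and less RNA per cell cannot be told apart.

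E2F factors bind DNA mostly as dimers with DP proteins and switch on or off the genes for DNA replication and mitosis. In resting cells the repressors, held by pocket proteins and the MuvB core in the DREAM complex, keep these genes low, and cyclin-dependent kinases release the pocket proteins as cells enter S phase, when the activators take over. *E2f7* and *E2f8* encode atypical factors that bind without a DP partner and lower target transcription later in S phase, and *E2f6* represses without pocket proteins, through a Polycomb complex. Several of these genes are themselves E2F targets and so follow the cell cycle.

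The promoters of the members were read for the letters by which these factors and MuvB recognise targets, since *E2f8*, *Rbl1*, *E2f1* and *E2f6* are among the members called between *Gata3*-GFP+ and *Gata3*-GFP- cells below and *E2f2* had the largest fold change in SNS. RefSeq promoter sequences (GRCm38.p6, 250 bases before to 50 after RefSeq's start of the gene) were matched for 8 of the 10 members, with 10 promoters, and *E2f4* and *E2f5* were not among them. The sequences are given 5′ to 3′ on the strand of the gene, and capitals mark the words searched. They are *Rbl1* (chr2:157204485-157204784, minus strand), *E2f8* (chr7:48881547-48881846, minus strand), the first of 2 promoters of *E2f2* (chr4:136172024-136172323, plus strand), *E2f1* (chr2:154569377-154569676, minus strand) and *E2f6* (chr12:16810715-16811014, plus strand).
Rbl1: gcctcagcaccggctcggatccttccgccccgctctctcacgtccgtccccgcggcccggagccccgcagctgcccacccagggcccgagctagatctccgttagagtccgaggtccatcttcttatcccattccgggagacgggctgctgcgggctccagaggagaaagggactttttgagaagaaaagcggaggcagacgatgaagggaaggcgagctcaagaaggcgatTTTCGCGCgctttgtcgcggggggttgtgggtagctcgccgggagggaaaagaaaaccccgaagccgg
E2f8: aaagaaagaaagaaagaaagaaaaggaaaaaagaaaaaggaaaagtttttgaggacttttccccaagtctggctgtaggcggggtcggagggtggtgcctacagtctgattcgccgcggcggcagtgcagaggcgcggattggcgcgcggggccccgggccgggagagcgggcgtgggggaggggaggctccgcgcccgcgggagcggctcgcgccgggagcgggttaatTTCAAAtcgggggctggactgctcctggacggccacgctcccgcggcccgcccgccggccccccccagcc
E2f2: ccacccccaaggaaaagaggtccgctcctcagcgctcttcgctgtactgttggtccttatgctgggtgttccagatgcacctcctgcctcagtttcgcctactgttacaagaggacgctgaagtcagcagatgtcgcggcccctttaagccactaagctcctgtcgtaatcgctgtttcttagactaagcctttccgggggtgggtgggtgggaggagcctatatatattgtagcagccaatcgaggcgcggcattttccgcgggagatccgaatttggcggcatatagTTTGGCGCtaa
E2f1: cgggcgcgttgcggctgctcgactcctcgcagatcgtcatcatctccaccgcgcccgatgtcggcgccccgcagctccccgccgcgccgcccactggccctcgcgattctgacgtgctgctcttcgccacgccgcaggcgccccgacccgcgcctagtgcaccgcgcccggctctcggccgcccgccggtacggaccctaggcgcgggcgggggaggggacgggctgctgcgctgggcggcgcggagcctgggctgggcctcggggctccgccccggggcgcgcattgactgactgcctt
E2f6: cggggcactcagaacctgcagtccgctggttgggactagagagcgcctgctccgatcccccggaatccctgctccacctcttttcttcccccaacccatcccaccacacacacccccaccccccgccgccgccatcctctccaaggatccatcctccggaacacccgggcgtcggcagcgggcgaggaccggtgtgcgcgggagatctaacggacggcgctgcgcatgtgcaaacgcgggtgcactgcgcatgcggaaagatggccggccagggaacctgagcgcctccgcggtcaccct
The E2F words searched on both strands were TTTCCCGC, TTTGGCGC, TTTCGCGC and TTTGCCGC, and words on opposite strands can overlap, but each promoter that held one held 1 match. *Rbl1* held one 18 bases before its start, and *E2f2* held one 39 bases after it. *E2f3* and *E2f7* held one each as well, 11 and 198 bases before the start. Of all 32851 mouse promoters of this length in the table, 744 (2.26%) held such a word. The word TTTGAA of the CHR element, to which the MuvB core binds, was searched on both strands too and stood 20 bases before the start of *E2f8*. It was also in the promoter of *E2f3*, the second promoter of *E2f2* and that of *Rbl2*, and in 17.9% of all promoters. The windows of *E2f1* and *E2f6* held neither word, which says only that these letters are not in these 300 bases. By GENCODE M21 the *E2f1* window lies wholly inside the gene, whose 5′ end is at chr2:154569892. The bases upstream of that end were not searched. The *E2f2* window shown ends before the 5′ end of that gene by GENCODE M21, at chr4:136172394. By that annotation its E2F word lies upstream of the gene.

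Before any comparison, the labels were checked against markers of the sorted types and against *Gata3*. In 13 of the 153 pools the markers of another sorted type summed to more CPM (counts scaled to a common library total) than those of the pool's own type, a rule chosen after the data were seen. They were 3 pools each of *Gata3*-GFP+ MCs, *Gata3*-GFP- MCs, *Gata3*-GFP+ SNS and *Gata3*-GFP- SNS, and 1 pool of *Gata3*-GFP+ HCs. The 3 *Gata3*-GFP- MC pools held 33.2 to 93.3 CPM of 6 MC markers (among them *Pdgfrb* and *Col1a1*) and 1397 to 2946 CPM of 6 SNS markers (among them *Th* and *Dbh*), and the 3 *Gata3*-GFP+ MC pools 231 to 373 and 782 to 1106 CPM. The 6 SNS pools went the other way. The 3 *Gata3*-GFP+ SNS pools held 15.8 to 35.0 CPM of SNS markers and 2057 to 2371 CPM of MC markers. The 3 *Gata3*-GFP- SNS pools held 16.7 to 28.5 and 3028 to 3789 CPM. The other MC pools held 2580 to 3951 CPM of MC markers if *Gata3*-GFP+ and 1863 to 2956 CPM if *Gata3*-GFP-. They held at most 34.2 CPM of SNS markers. The other SNS pools held 747 to 2090 CPM of SNS markers if *Gata3*-GFP+ and 671 to 970 CPM if *Gata3*-GFP-. The 13 pools were kept under their labels, and results in HCs, MCs and SNS are given with and without them, which left 140 pools. *Gata3* was higher in *Gata3*-GFP+ pools of ECs, HCs and SNS cells, with log2 fold changes of 2.66, 2.89 and 1.85, and passed the test in each. In MCs the log2 fold change of *Gata3* was −0.66 ± 0.52 (SE, edgeR adjusted p = 0.50), and the 3 *Gata3*-GFP- MC pools that went against their label held 123 to 395 CPM of it. The 3 such *Gata3*-GFP+ MC pools held 16.2 to 82.2 CPM of *Gata3*. The 3 such *Gata3*-GFP+ SNS pools held 9.96 to 24.3 CPM, and the 3 such *Gata3*-GFP- SNS pools 44.4 to 50.1 CPM. Without the 6 MC pools *Gata3* was higher in *Gata3*-GFP+ MCs, with a log2 fold change of 1.88 ± 0.22 (SE, edgeR adjusted p = 9.0e-08).

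**Figure D1:**
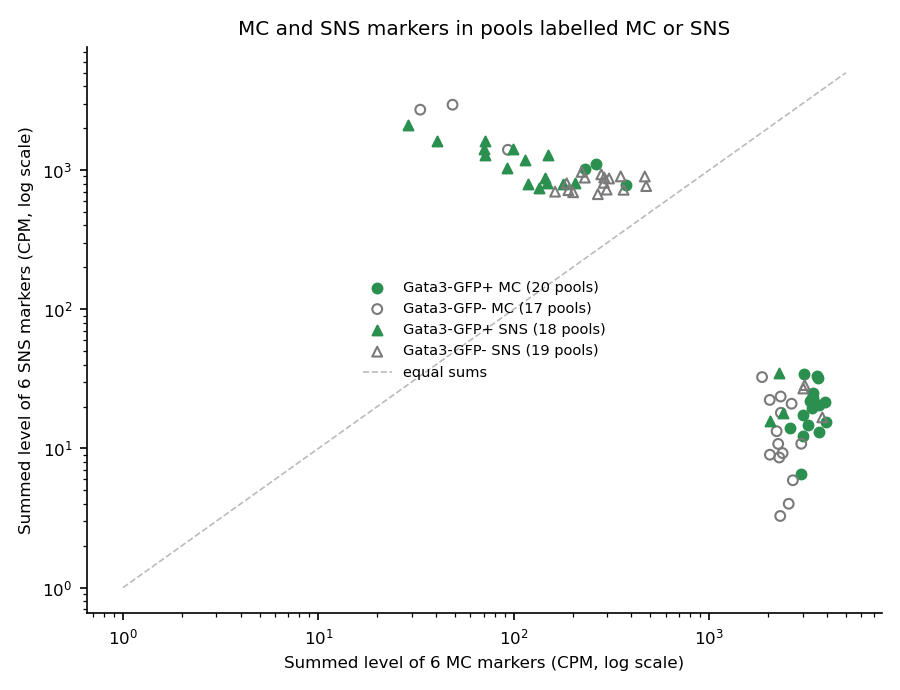
Summed CPM of 6 MC markers (x axis, log scale) and 6 SNS markers (y axis, log scale) in each pool labelled MC or SNS, with the dashed line at equal sums. The 3 pools of each of the 4 populations that lie on the other side of the line from the rest of their population are those whose markers go against their label.

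Per length, *E2f5* and *E2f4*, the repressors that DREAM uses, were the most abundant members, with 33.1 and 21.7 CPM per kb of exon as the mean of the 8 populations. *E2f6* (6.50 CPM per kb), *E2f1* (5.85), *E2f3* (5.65) and *Rbl1* (4.09) followed, and *E2f8* (3.08), *E2f7* (2.34), *Rbl2* (1.43) and *E2f2* (1.39) were lowest. Between its highest and its lowest population, *E2f8* varied most. *Gata3*-GFP- HCs had a mean of 40.4 ± 13.9 CPM (SD, n = 20), and *Gata3*-GFP+ ECs one of 8.96 ± 8.29 CPM (SD, n = 19). *E2f4* varied least, from 42.9 ± 11.6 CPM (SD, n = 20) in *Gata3*-GFP+ MCs up to *Gata3*-GFP- HCs with 77.7 ± 21.3 CPM (SD, n = 20). When the 8 population means of a member were put in order, the 7 steps between neighbours were smaller than the larger SD of the pair in 7 of the 10 members. The other 3 had 1 step beyond it, from *Gata3*-GFP+ MCs down to *Gata3*-GFP+ HCs in *E2f3*, from *Gata3*-GFP- HCs down to *Gata3*-GFP+ SNS in *E2f8*, and from *Gata3*-GFP- HCs down to *Gata3*-GFP+ HCs in *Rbl1*. For every member the *Gata3*-GFP+ and *Gata3*-GFP- pools overlapped in every cell type. The share of all genes that overlap so is not given here, so this describes the ranges only.

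**Figure D2:**
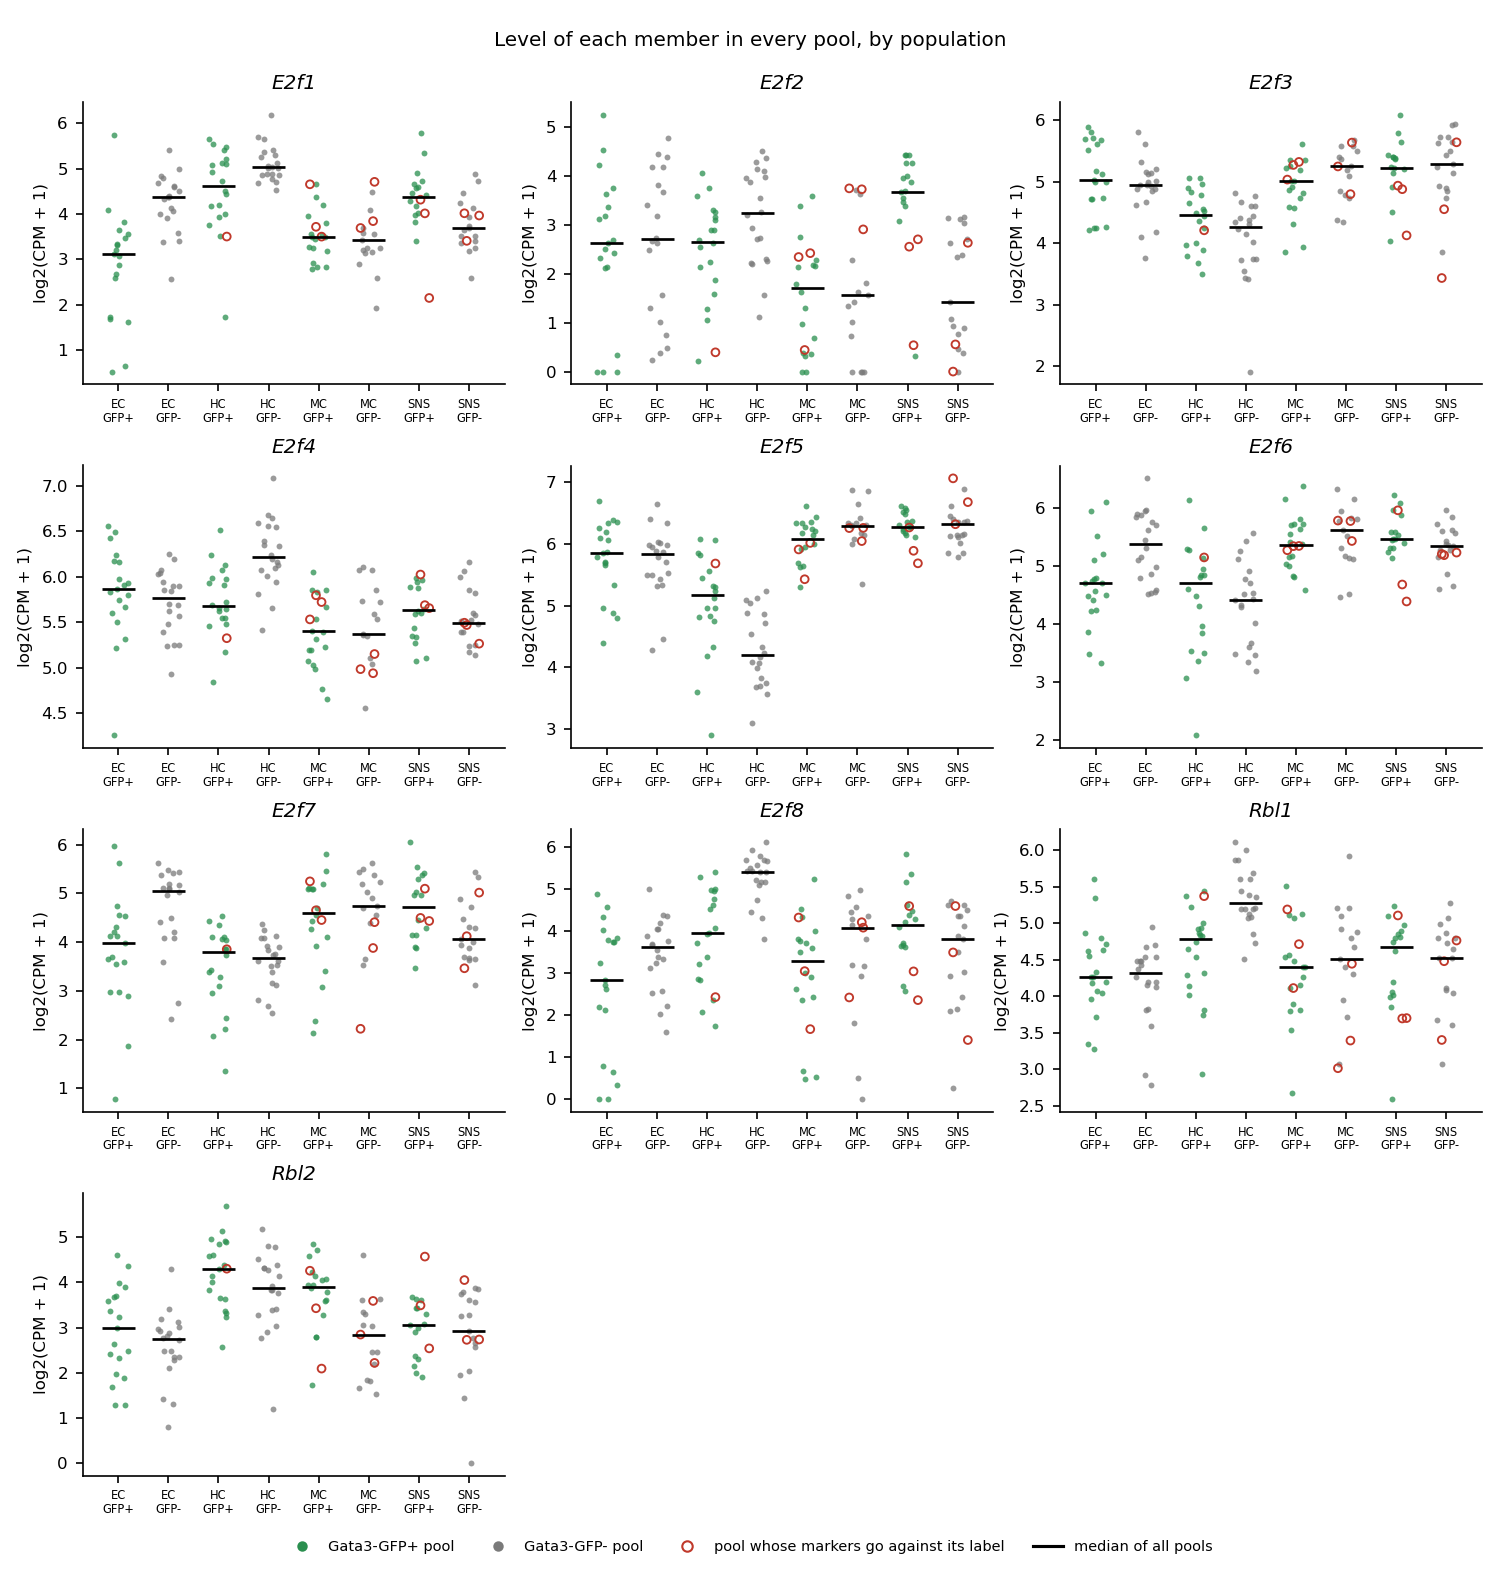
Level of each of the 10 members (y axis, log2(CPM + 1)) in every pool of the 8 populations (x axis), with bars at the medians and red open circles for the 13 pools whose markers go against their label. *E2f8* is highest in *Gata3*-GFP- HCs (median 41.6 CPM), and *E2f2* reaches a median of 11.8 CPM in *Gata3*-GFP+ SNS against 1.67 CPM in *Gata3*-GFP- SNS.

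In ECs, 2 members were lower in *Gata3*-GFP+ cells, the activator *E2f1* and the repressor *E2f6*, and none was higher. Both calls were lost with DESeq2 size factors (adjusted p of 0.0108 for *E2f1* and 0.0141 for *E2f6*), that of *E2f1* with all pools (0.0110) and that of *E2f6* with no filter (0.0130). *E2f1*, which drives entry into S phase, had a lowest, median and highest level of 0.442, 7.72 and 52.3 CPM in 19 *Gata3*-GFP+ EC pools and of 4.89, 19.8 and 41.7 CPM in 20 *Gata3*-GFP- EC pools. All but 1 of the *Gata3*-GFP+ pools lay below the *Gata3*-GFP- median. The log2 fold change was −1.12 ± 0.34 (SE, edgeR adjusted p = 0.0067). The exception, at 52.3 CPM, was also the highest of the 19 *Gata3*-GFP+ EC pools in *E2f2* (37.0 CPM) and *E2f7* (62.1 CPM), and the lowest in *E2f4* (18.1 CPM) and in counts on genes. It was highest too in the mean log2(CPM + 1) of the 25 G1/S targets read below (6.23). In that of the 20 late targets it ranked 16 of 19 (4.89). Without that pool the log2 fold change of *E2f1* was −1.51, and without the highest *Gata3*-GFP- pool it was −1.04 with an edgeR adjusted p of 0.0125, past the threshold of 0.01. *E2f6*, the Polycomb-linked repressor, ranged over 9.02, 24.95 and 67.7 CPM (lowest, median, highest) in *Gata3*-GFP+ and over 21.8, 40.8 and 90.2 CPM in *Gata3*-GFP- ECs. It lay below the *Gata3*-GFP- median in 16 of 19 *Gata3*-GFP+ pools, with 8 below every *Gata3*-GFP- pool. Its log2 fold change was −0.68 ± 0.22 (SE, edgeR adjusted p = 0.0086). The call was lost without the lowest *Gata3*-GFP+ pool (adjusted p = 0.0129) or without the highest *Gata3*-GFP- pool (adjusted p = 0.0172). Of all genes tested in ECs 36.0% were called, 19.5% higher and 16.5% lower in *Gata3*-GFP+ cells. The 2 of 10 members, both lower, are under the share called either way and near the share called lower.

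The other 8 members did not pass in ECs. *E2f7* was closest, with medians of 14.7 CPM in *Gata3*-GFP+ and 32.3 CPM in *Gata3*-GFP- ECs and a log2 fold change of −0.73 ± 0.32 (SE, edgeR adjusted p = 0.058). The abundant repressors had nearly equal medians, of 57.5 and 53.7 CPM in *E2f4* and of 56.9 and 55.9 CPM in *E2f5*. Both dimer partners were called, in opposite directions: *Tfdp1*, which encodes DP1, fell from a median of 42.5 to 25.7 CPM, and *Tfdp2*, which encodes DP2, rose from 33.2 to 67.5 CPM. Their log2 fold changes were −0.83 ± 0.16 (SE) and 0.85 ± 0.16 (SE), and with spike-in factors −1.59 and 0.24, where *Tfdp2* was no longer called (edgeR adjusted p = 0.45). Markers of other cell types moved with the *Gata3*-GFP state of ECs. The 6 MC markers, each of them called higher, summed to between 19.9 and 1288 CPM in *Gata3*-GFP+ ECs and between 1.61 and 66.4 CPM in *Gata3*-GFP- ECs. The 4 epithelial markers ranged from 22.3 to 124 CPM against 0.175 to 7.89 CPM. Their part in the result was not tested. Without the pool at 1288 CPM *E2f1* kept its call (log2 fold change −1.07, edgeR adjusted p = 0.0094) and *E2f6* did not (−0.68, adjusted p = 0.0102).

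*Gata3*-GFP+ EC pools also yielded fewer counts on genes per count on the ERCC spike-in RNAs, 5.95 ± 0.44 (SD, n = 19) on the log2 scale against 6.66 ± 0.41 (SD, n = 20). Scaling to the spike-ins moved the median log2 fold change of all genes in ECs from 0.10 to −0.60, and the genes called from 2932 higher and 2492 lower to 951 higher and 5685 lower. On that scale 44.0% of all genes were called, and 4 members were lower in *Gata3*-GFP+ ECs, *E2f4* (−0.69) and *E2f5* (−0.71) besides *E2f1* and *E2f6*. The fold changes of *E2f3*, *E2f4*, *E2f5*, *Rbl1* and *Rbl2* turned from positive to negative with it, so a direction is given for none of these 5 in ECs. In SNS the same scaling moved the median of all genes from −0.004 to 0.35, and in HCs and MCs by less than 0.1.

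In HCs, 4 members differed: *E2f4*, *E2f8* and *Rbl1* were lower and *E2f5* was higher in *Gata3*-GFP+ cells. *E2f8*, an atypical repressor, ranged over 2.33, 14.4 and 41.3 CPM (lowest, median, highest) in 20 *Gata3*-GFP+ HC pools and over 12.9, 41.6 and 68.5 CPM in 20 *Gata3*-GFP- HC pools. All 20 *Gata3*-GFP+ pools lay below the *Gata3*-GFP- median and 9 lay below every *Gata3*-GFP- pool. Its log2 fold change was −1.23 ± 0.27 (SE, edgeR adjusted p = 3.9e-04). Reads over 11.2% of the exon length of *E2f8* can also come from *Gm2788* on the opposite strand, and whether the counting used strand is not given in the sources used here. *Rbl1*, a pocket protein that binds *E2f4* and *E2f5* products, had 6.65, 26.5 and 42.4 CPM in *Gata3*-GFP+ and 21.7, 38.0 and 68.0 CPM in *Gata3*-GFP- HCs. It was below the *Gata3*-GFP- median in 17 of 20 pools, with a log2 fold change of −0.72 ± 0.17 (SE, edgeR adjusted p = 7.2e-04).

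The DREAM repressors *E2f4* and *E2f5*, close relatives, went opposite ways in HCs. *E2f4* had 27.7, 50.2 and 90.5 CPM (lowest, median, highest) in *Gata3*-GFP+ and 41.7, 73.7 and 135 CPM in *Gata3*-GFP- HCs, with 18 of 20 *Gata3*-GFP+ pools below the *Gata3*-GFP- median. *E2f5* had 6.42, 35.2 and 66.6 CPM in *Gata3*-GFP+ and 7.48, 17.2 and 36.8 CPM in *Gata3*-GFP- HCs, with 17 of 20 *Gata3*-GFP+ pools above the *Gata3*-GFP- median and 9 above every *Gata3*-GFP- pool. The log2 fold changes were −0.53 ± 0.12 (SE, edgeR adjusted p = 5.2e-04) for *E2f4* and 0.85 ± 0.22 (SE, edgeR adjusted p = 0.0022) for *E2f5*. On the spike-in scale the *E2f4* call was lost (adjusted p = 0.0117). All 4 calls held when the pool highest or lowest in that gene was left out of either population, and all 4 held without the *Gata3*-GFP+ pool that went against its label, where 26.2% of all genes were called. In HCs 26.6% of all genes were called, 17.1% higher and 9.53% lower in *Gata3*-GFP+ cells, beside 1 of 10 members higher and 3 of 10 lower.

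None of the activators passed in HCs. *E2f1* had medians of 23.5 CPM in *Gata3*-GFP+ and 31.6 CPM in *Gata3*-GFP- HCs, and 10 of 20 *Gata3*-GFP+ pools lay below every *Gata3*-GFP- pool. Its log2 fold change was −0.46 ± 0.21 (SE, edgeR adjusted p = 0.088). That of *E2f2* was −0.79 ± 0.37 (SE, edgeR adjusted p = 0.093) and that of *E2f3* 0.30 ± 0.18 (SE, edgeR adjusted p = 0.19). *Tfdp2* rose in *Gata3*-GFP+ HCs from a median of 11.9 to 55.8 CPM (log2 fold change 2.07 ± 0.24, SE) and *Tfdp1* fell from 63.6 to 45.8 CPM (−0.52 ± 0.15, SE). With spike-in factors *Tfdp2* kept its call (1.93) and *Tfdp1* did not (−0.59, edgeR adjusted p = 0.025). *Gata3*-GFP+ HC pools held more RNA of other types. The 6 MC markers, all called higher, ranged in sum from 13.2 to 646 CPM against 1.06 to 133 CPM. The 6 SNS markers, all higher, ranged from 1.12 to 1191 CPM against 0.198 to 8.89 CPM, and the 4 epithelial markers, all higher, from 1.58 to 153 CPM against 0.298 to 19.6 CPM. Of 6 EC markers 5 were higher, and of 5 macrophage markers *Csf1r* and *Cx3cr1* were lower, with sums from 35.2 to 4388 against 1689 to 3677 CPM. Without the pool that went against its label, the 6 SNS markers, all still called higher, summed to at most 574 CPM. Of the macrophage markers only *Cx3cr1* was then called lower. Their part in the result was not tested.

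**Figure D3:**
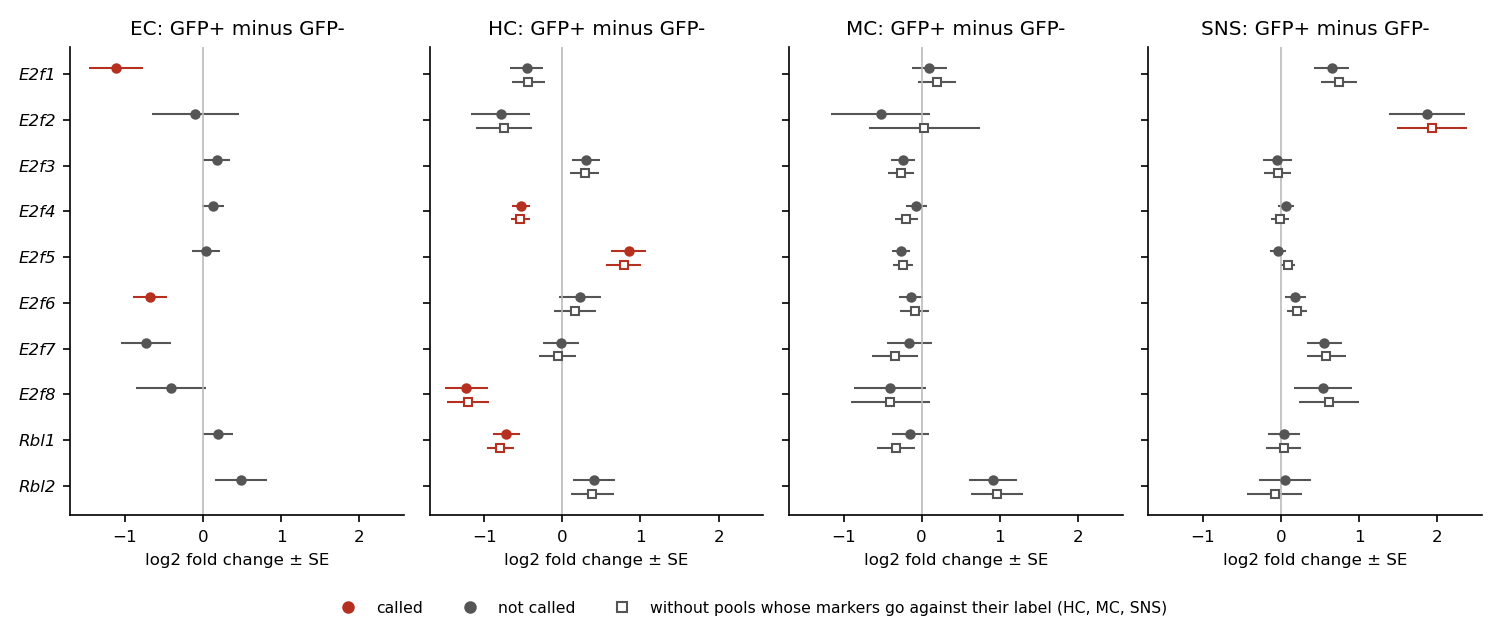
Log2 fold change of each member, *Gata3*-GFP+ minus *Gata3*-GFP-, in 4 cell types (points, with bars of 1 SE), red where called at an edgeR adjusted p under 0.01, and open squares without the pools whose markers go against their label. *E2f1* (−1.12) and *E2f6* (−0.68) were called in ECs, *E2f4*, *E2f5*, *E2f8* and *Rbl1* in HCs, and *E2f2* in SNS only without the 6 pools.

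Whether the *Gata3*-GFP difference itself differed between HCs and ECs was tested in a fit of all 8 populations. It did for 3 members, where 22.1% of all genes were called. The difference in HCs minus that in ECs was −0.69 ± 0.18 for *E2f4* (SE, edgeR adjusted p = 9.9e-04), 0.76 ± 0.23 for *E2f5* (SE, edgeR adjusted p = 0.0065) and −0.95 ± 0.28 for *Rbl1* (SE, edgeR adjusted p = 0.0056) on the log2 scale. *E2f1*, *E2f6* and *E2f8*, each called in only one of the types, did not pass this test, and *E2f6* came closest (0.86 ± 0.29, SE, adjusted p = 0.014). Without the 13 pools *E2f4* (−0.67) and *Rbl1* (−0.99) kept the call, beside 23.6% of all genes, and *E2f5* (0.73, edgeR adjusted p = 0.0102) did not. On the spike-in scale the median of all genes was 0.77 instead of 0.11, and 32.1% of all genes were called. The value for *E2f4* turned there to 0.15 and that for *Rbl1* to −0.17, neither of them called. *E2f5* and *E2f6* (1.40) were called. *Tfdp2* also differed between the types, with a larger rise in HCs by 1.18 ± 0.24 (SE).

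In MCs none of the 10 members passed edgeR's test, and 2 had an unadjusted p under 0.05. DESeq2's Wald test and the study's own test (scanpy) also called 0. All genes together gave 4.36% called with all 37 pools and 10.4% without the 6 pools. *Rbl2*, the pocket protein most tied to resting cells, was nearest the threshold, with 2.33, 13.9 and 27.8 CPM (lowest, median, highest) in 20 *Gata3*-GFP+ MC pools and 1.88, 6.18 and 23.6 CPM in 17 *Gata3*-GFP- MC pools. Of the 20, 16 lay above the *Gata3*-GFP- median. The log2 fold change was 0.91 ± 0.30 (SE, edgeR adjusted p = 0.048), and 0.96 (adjusted p = 0.039) without the 6 pools. Reads over 9.17% of the exon length of *Rbl2* can also come from *Aktip* and over 11.8% from *Gm45464*, on the opposite strand.

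In SNS none of the 10 members passed with all 37 pools, where 3.87% of all genes were called, and 3 members had an unadjusted p under 0.05. DESeq2's Wald test called 1, *E2f2*, beside 5.61% of all genes, and the study's test called 0. *E2f2*, an activator of S phase genes like *E2f1*, had 0.253, 11.8 and 20.5 CPM (lowest, median, highest) in 18 *Gata3*-GFP+ SNS pools and 0, 1.67 and 7.86 CPM in 19 *Gata3*-GFP- SNS pools, and 13 of the 18 lay above every *Gata3*-GFP- pool. Its log2 fold change was 1.87 ± 0.48 (SE, edgeR adjusted p = 0.011). A level of 0.689 CPM corresponds to 3 counts in a *Gata3*-GFP- SNS pool of median depth, so its lowest levels rest on a few reads. Leaving out the lowest *Gata3*-GFP+ pool (adjusted p = 0.0055) or the highest *Gata3*-GFP- pool (adjusted p = 0.0083) brought *E2f2* past the threshold. Both omissions widen the difference. Without the highest *Gata3*-GFP+ pool (edgeR adjusted p = 0.0173) or the lowest *Gata3*-GFP- pool (edgeR adjusted p = 0.0122) *E2f2* stayed uncalled. Without the 6 pools that went against their label it passed, with medians of 13.6 and 2.85 CPM and a log2 fold change of 1.93 ± 0.45 (SE, edgeR adjusted p = 0.0019), among 10.4% of all genes called. In these SNS pools the 6 MC markers, all 6 called lower, summed to between 28.9 and 206 CPM in *Gata3*-GFP+ and between 162 and 476 CPM in *Gata3*-GFP- cells. The 6 HC markers summed to between 34.6 and 87.3 CPM against 7.46 to 35.3 CPM, with 1 called (*Kit*, higher) and *Ptprc*, *Itga2b*, *Spi1* and *Gfi1b* at a median of 0. Their part in the result was not tested. *E2f1* had medians of 19.7 and 11.95 CPM in *Gata3*-GFP+ and *Gata3*-GFP- SNS (log2 fold change 0.65, edgeR adjusted p = 0.064, and 0.74 with 0.019 without the 6 pools). The other activator, *E2f3*, had medians of 36.6 and 38.0 CPM.

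No member's *Gata3*-GFP difference differed between SNS and MCs past the threshold of edgeR, where 8.90% of all genes were called. *E2f2* was the 1 member at an unadjusted p under 0.05 (2.39 on the log2 scale, adjusted p = 0.018, and 1.91 with 0.11 without the 13 pools). On the spike-in scale *E2f2* was called, beside 9.88% of all genes. A test of all 4 cell types at once called *E2f1*, *E2f2*, *E2f4* and *E2f5*, where 41.7% of all genes were called. Without the 13 pools it called *E2f1*, *E2f4*, *E2f5* and *Rbl1*, beside 40.0% of all genes, and the adjusted p of *E2f2* was 0.0128.

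The balance of activators and repressors was read as the mean log2(CPM + 1) of *E2f1* to *E2f3* minus that of *E2f4* to *E2f8* in each pool. It is a description without a test. The median balance was −1.17 in *Gata3*-GFP+ and −1.04 in *Gata3*-GFP- ECs, −0.71 and −0.63 in HCs, −1.41 and −1.54 in MCs, and −0.84 and −1.29 in SNS. In ECs the mean difference of the balance was 0.00097 beside a pooled SD of 0.63, with the mean of the activators and that of the repressors both lower by 0.43 in *Gata3*-GFP+ ECs. In HCs it was −0.074 beside a pooled SD of 0.61, and in MCs 0.10 beside 0.70 (0.29 without the 6 pools). SNS had the widest difference, 0.48 beside a pooled SD of 0.51 (0.54 without the 6 pools), with activators higher by 0.74 and repressors by 0.26. The activators were not higher as a class there. *E2f2*, with a median of 1.67 CPM in *Gata3*-GFP- SNS, had a log2 fold change of 1.87, *E2f1* one of 0.65 and *E2f3* one of −0.05. None of them was called with all pools. The mean of *E2f7* and *E2f8* was lower in *Gata3*-GFP+ ECs by 0.82 beside a pooled SD of 1.003, where neither passed the test. In HCs it was lower by 0.81 beside 0.66, where *E2f8* passed and *E2f7* had a log2 fold change of −0.02. The mean of *E2f4* to *E2f6* differed by −0.17 in ECs, with *E2f6* called, and by 0.10 in HCs, a mean over *E2f4* (called lower) and *E2f5* (called higher). In SNS the mean of *E2f7* and *E2f8* was higher by 0.56 beside a pooled SD of 0.74, and that of *E2f4* to *E2f6* by 0.065 beside 0.21.

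**Figure D4:**
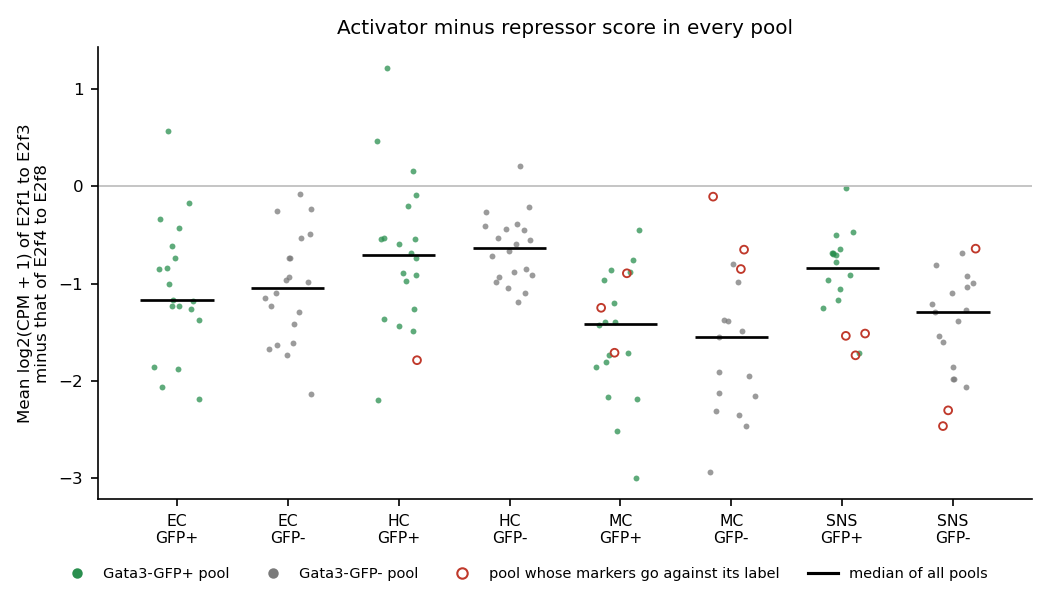
Balance of activators and repressors (y axis, mean log2(CPM + 1) of *E2f1* to *E2f3* minus that of *E2f4* to *E2f8*) in each pool of the 8 populations (x axis), with bars at the medians. *Gata3*-GFP+ and *Gata3*-GFP- pools have close medians in ECs, HCs and MCs and medians of −0.84 and −1.29 in SNS.

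The genes that E2F factors and DREAM control were taken from lists written with earlier results of these data known. Of 25 G1/S targets, 21 were lower in *Gata3*-GFP+ ECs, 10 lower in HCs and 8 lower in MCs, and none higher, while in SNS 8 were higher and none lower. Of all genes, 16.5% were called lower in ECs and 9.53% lower in HCs. In MCs 4.36% of all genes were called either way, and in SNS 3.87%. The median log2 fold changes of the 25 targets were −1.07 in ECs, −0.50 in HCs, −0.59 in MCs and 0.37 in SNS, beside medians of all genes of 0.10, 0.05, −0.01 and −0.004. The largest falls in ECs were *Cdc6*, a licensing factor of replication origins (−2.04), and *Rrm2*, a subunit of ribonucleotide reductase (−1.97). In HCs they were *Orc1* (−1.13) and *Cdt1* (−0.94), both of the origin licensing machinery, and in MCs *Ccne1*, which encodes cyclin E1, fell by 1.16 on the log2 scale. In SNS *Ccne2* (1.05) and *Rrm2* (1.02) rose most. Without the pools against their label the counts were 13 lower in HCs, 13 lower in MCs and 10 higher in SNS, beside 26.2%, 10.4% and 10.4% of all genes called. On the spike-in scale they were 23 lower in ECs, 5 lower in HCs, 0 in MCs and 11 higher in SNS. The shares of all genes called on that scale were 44.0%, 18.8%, 2.38% and 6.28%.

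Of 20 late targets, which DREAM and later B-MYB and FOXM1 control in G2/M, 10 were lower in *Gata3*-GFP+ ECs and 5 in HCs, with median log2 fold changes of −0.82 and −0.35. *Aurkb* (−1.38) and *Cdk1* (−1.27), 2 mitotic kinases, fell most in ECs, and *Mki67* (−0.72) and *Birc5* (−0.67) in HCs. In MCs 1 was called lower (*Cdca8*, −0.87) with all pools. The median there was −0.82, and 18 of 20 had an unadjusted edgeR p under 0.05. Without the 6 pools 10 were lower, with a median of −1.04 and *Ccnb2* (−1.41) and *Bub1b* (−1.23) the largest falls. In SNS *Ccna2* (0.66) was the 1 called, and the median was 0.33 (0.17 without the 6 pools). Of all genes, 16.5% were called lower in ECs and 9.53% lower in HCs. Called either way were 4.36% in MCs and 3.87% in SNS, and 10.4% in each without the 6 pools. On the spike-in scale 20 late targets were lower in ECs, 3 lower in HCs, 0 called in MCs and 3 higher in SNS. Beside them 44.0%, 18.8%, 2.38% and 6.28% of all genes were called. *Mybl2*, which encodes B-MYB and is itself a target of E2F, was lower in *Gata3*-GFP+ ECs, with medians of 3.79 and 19.7 CPM (log2 fold change −1.45 ± 0.42, SE, edgeR adjusted p = 0.0039), and *Foxm1* passed in no cell type.

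**Figure D5:**
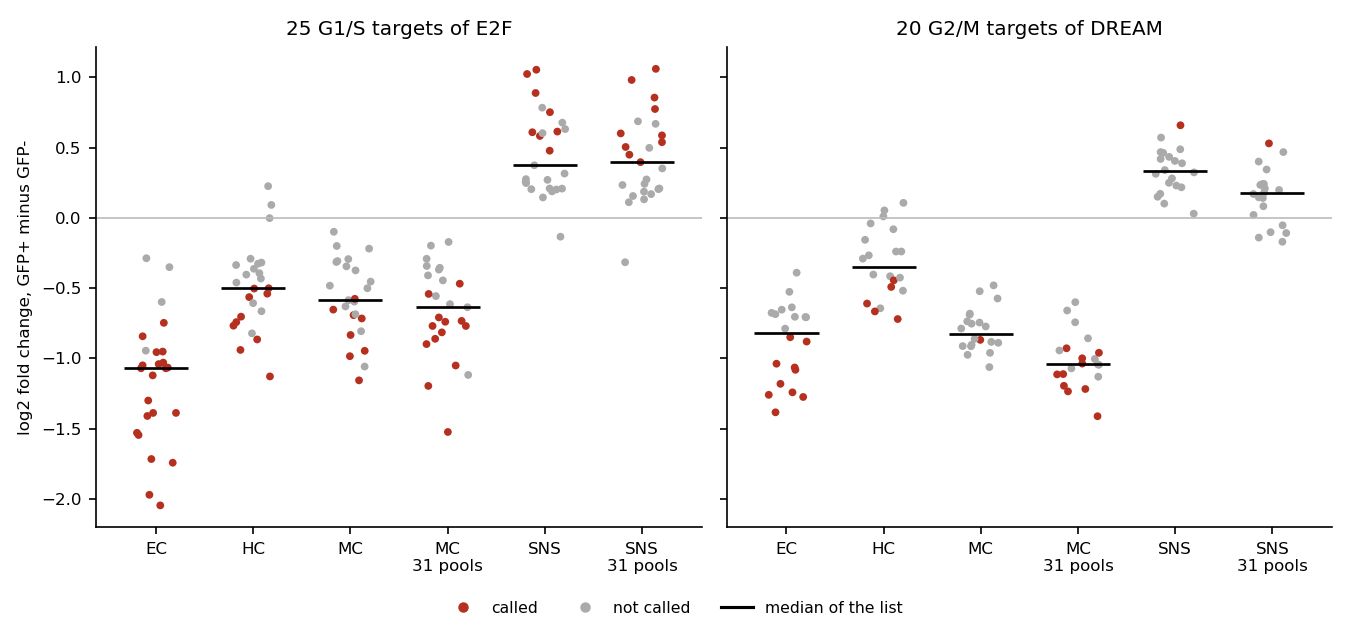
Log2 fold change (y axis), *Gata3*-GFP+ minus *Gata3*-GFP-, of 25 G1/S and 20 G2/M targets (points, red where called, bars at the medians) in ECs, HCs, MCs and SNS, with MCs and SNS also without the 6 pools of each that went against their label. G1/S medians are −1.07 in ECs, −0.50 in HCs and −0.59 in MCs, and 0.37 in SNS.

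Of the 8 G1 cyclins and kinases that act on pocket proteins, 3 were lower in *Gata3*-GFP+ ECs, with *Ccnd1* at −3.35 and *Ccne2* at −1.41, and the median log2 fold change of the 8 was −0.43. In HCs *Ccnd3* (0.97), *Ccnd2* (0.80) and *Cdk4* were higher and *Cdk6* lower (−1.12), with a median of 0.20. MCs had 2 lower (*Ccne1* and *Ccnd2*, the latter −0.58, median of the 8 −0.43) and SNS 1 higher (*Ccne2*, median of the 8 0.30), and without the 6 pools of each 4 were lower in MCs and in SNS 3 higher and 1 lower. With spike-in factors 6 were lower in ECs, *Ccnd3* was higher and *Cdk6* lower in HCs, none was called in MCs and 3 were higher in SNS. Of the 5 MuvB genes, *Rbbp4*, which encodes a histone-binding subunit, was lower in *Gata3*-GFP+ ECs (−0.61; median of the 5 0.40), and none passed in the other types. Of the 7 genes of the Polycomb complex that holds *E2f6*, *Pcgf6* (−0.88) and *Cbx3* (−0.41) were lower in ECs (median of the 7 −0.12; 4 lower with spike-in factors) and none passed in HCs, MCs or SNS with all pools. In ECs the calls of these lists, 3 of 8, 1 of 5 and 2 of 7, were all falls, beside 36.0% of all genes called and 16.5% called lower. Of all genes, 26.6% were called in HCs, 4.36% in MCs and 3.87% in SNS. Without the 6 pools of each, 10.4% were called in MCs and 10.4% in SNS. With spike-in factors the shares were 44.0% in ECs, 18.8% in HCs, 2.38% in MCs and 6.28% in SNS.

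HCs and ECs differed in more members among *Gata3*-GFP- than among *Gata3*-GFP+ cells, a contrast of counts that was not itself tested. For a single member it is the same contrast as the difference in HCs minus that in ECs above. Only *E2f4*, *E2f5* and *Rbl1* passed that test with all pools. Among *Gata3*-GFP- cells 9 of 10 members were called, *E2f2* being the exception, beside 37.0% of all genes. *E2f8* (1.80), *Rbl2* (1.38), *Rbl1* (1.19), *E2f1* (0.83) and *E2f4* (0.55) were higher in HCs on the log2 scale, and *E2f5* (−1.42), *E2f7* (−1.24), *E2f6* (−0.97) and *E2f3* (−0.83) were lower. In *Gata3*-GFP+ cells 4 were called, beside 43.9% of all genes, with *E2f1* (1.47) and *Rbl2* (1.26) higher and *E2f3* (−0.74) and *E2f5* (−0.66) lower in HCs. With spike-in factors, where the median of all genes was 0.83 instead of 0.15, the calls of *E2f3* (−0.14) and *E2f5* (0.044, the sign turned) were lost. Between SNS and MCs, *E2f2* (2.03) and *E2f1* (0.85) were higher in *Gata3*-GFP+ SNS, beside 21.7% of all genes called. The *E2f1* call was lost with DESeq2 size factors (0.80, edgeR adjusted p = 0.0116), and spike-in factors, where the median of all genes was 0.65, called 9 members beside 42.8% of all genes. No member was called between *Gata3*-GFP- SNS and MCs, where 6.29% of all genes were. Without the 13 pools *E2f2* (2.22) and *E2f1* (1.05) were again the 2 called in *Gata3*-GFP+ cells, beside 30.6% of all genes, and none in *Gata3*-GFP- cells, beside 17.1%.

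The genes whose 8 population means were most alike to those of each member were ranked by Pearson's r over these 8 means, among 12104 genes. This is a description over few points that share their libraries. *E2f1* was most like *Gm13612* (r = 0.987) and *Fam72a* (0.976), *E2f8* most like *Gm8337* (0.985), *E2f4* most like *Cdk9* (0.990), and *E2f5* most like *Hnrnph1* (0.991). *E2f2* had *Rbbp8* (0.948), *Rbl1* had *Atf1* (0.976) and *Rbl2* had *Sord* (0.967). One member was among the 3 genes most alike to another: for *E2f7*, *E2f6* was the last of the 3, with r = 0.955.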

How the data were processed

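Smart-seq2 libraries were sequenced as single-end reads of 125 bases. The authors deposited counts of reads per gene, neither normalized nor filtered, with ERCC spike-in RNAs. The study's methods name STAR with Ensembl release 81, whereas the submitters' processing notes name GSNAP, HTSeq 0.5.3p3 and mm10; the strand and overlap settings are not given in the sources used here. Reads on no gene made up 38.3% to 67.6% of counts per pool (median 51.2%) and stayed out of every test. Gene positions came from GENCODE M21 (GRCm38), which matched 45143 of 46078 genes.

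Pools were grouped by their column labels. Those with over 500000 reads, over 20% of reads on genes, and under 20% each on mitochondrial genes and ERCC RNAs were used. No pool was identical to another. Genes reaching 10 counts in 5 or more pools of a comparison were tested with edgeR 4.0.16 (TMM, robust quasi-likelihood fits, R 4.3.3), and called at a Benjamini-Hochberg adjusted p under 0.01 over all genes tested and a log2 fold change beyond 0.1. Each cell type was fitted alone. Tests of differences between cell types used a fit of all 8 populations. SEs come from the F statistics. CPM values use TMM over all 8 populations. Reads were amplified and carry no molecular identifiers, so counting error understates the error of a pool.

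The members and lists were chosen with earlier results of these data known. Named are all members, the dimer partners, *Mybl2*, *Foxm1*, *Gata3*, and from each list 2 called genes at most in each direction, those of largest change, of which 1 is not reported here. Alternatives were DESeq2, scran 1.30.0 and spike-in size factors, other filters, DESeq2 1.42.0's Wald test, the study's test (scanpy 1.11.5), all pools, an added limit of 8000 genes, other thresholds and pseudocounts, and, chosen after seeing the data, leaving out the pool highest or lowest in a called gene, the EC pool highest in MC markers, or the pools whose markers go against their label. The steps were tested on simulated data. Tables and figures were made in Python 3.11.15 (pandas 2.3.3, matplotlib 3.10.9, numpy 2.4.6, scipy 1.17.1).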

Additional observations from a re-analysis of the deposited data

Results flagged for a closer look

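The *Gata3*-GFP difference differed between HCs and ECs for 3 members by edgeR's test of the difference itself, with values of −0.69 for *E2f4*, 0.76 for *E2f5* and −0.95 for *Rbl1* (HC difference minus EC difference, log2). *E2f4* and *Rbl1* are the pair whose value changes on the spike-in scale, to 0.15 and −0.17, and *E2f5* the one that misses the threshold without the 13 pools. Across all 4 cell types the test gave F = 8.11 for *E2f1*, 5.07 for *E2f2*, 5.99 for *E2f4* and 8.21 for *E2f5*. Cell type and stage cannot be told apart there.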

How the results depend on the processing

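Of 727 repeats of single-member values under alternatives, 665 kept direction and side of the threshold, 27 reversed, 19 newly passed and 16 no longer passed. Members called in ECs (2) became 0 with DESeq2 size factors (35.9% of all genes called) and 4 with spike-in factors (44.0%). They became 1 with all pools (*E2f6*, 35.5%), with no filter (*E2f1*, 20.3%) and without the pool high in MC markers (*E2f1*, 35.5%). In MCs 0 became 1 (*Rbl2*) at an adjusted p under 0.05, where 1514 of 16026 genes were called. In SNS 0 became 2 with spike-in factors (6.28% of all genes called). It became 1 with DESeq2's Wald test (5.61%), all pools (4.09%) and the filter of 20 pools (3.73%). It also became 1 at an adjusted p under 0.05 (1334 of 16143 genes) and without the pools against their label (10.4%). With spike-in factors 1 member was called for SNS against MC differences (9.88% of all genes), 8 for all 4 cell types (52.0%) and 9 between *Gata3*-GFP+ SNS and MCs (42.8%), where DESeq2 factors gave 1. Reversed with spike-in factors were, in ECs, *E2f3* (−0.44), *E2f4* (−0.69), *E2f5* (−0.71), *Rbl1* (−0.61) and *Rbl2* (−0.19); *E2f1* in MCs (−0.015); *E2f3* (0.35) and *E2f5* (0.37) in SNS; *E2f4* (0.15) and *Rbl2* (0.48) for HC minus EC differences; *E2f4* (0.65), *E2f5* (0.044) and *E2f6* (0.44) between *Gata3*-GFP+ HCs and ECs; and *E2f6* (0.11), *E2f8* (0.25) and *Rbl1* (0.22) between *Gata3*-GFP- SNS and MCs. *E2f5* in ECs reversed with scran factors (−0.0086) and the study's test (−0.030), *E2f7* in HCs with DESeq2's test (0.030) and factors (0.029), and *Rbl1* between *Gata3*-GFP+ SNS and MCs with DESeq2 factors (−0.028). Without the pools against their label, *E2f2* in MCs (0.035), *E2f4* (−0.0067), *E2f5* (0.096) and *Rbl2* (−0.078) in SNS, and *E2f2* (0.31) and *E2f5* (−0.086) between *Gata3*-GFP- SNS and MCs reversed. The cause was not tested. No paired analysis was possible because the columns carry no replicate numbers. The limit of 8000 genes removed no further pool. Depth limits *E2f2* most, which had 0 counts in 4 of 17 *Gata3*-GFP- MC pools.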
